A study of Mus musculus with 16 samples.

Results

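The comparison described here is that of HFD with ND in the free RNA of Dnmt2-/- sperm, and it rests on 4 of the 16 samples of the series. The members are the free RNA libraries of HFD males 3 and 4 and of ND males 1 and 2, as the sample titles give them. All 4 males lacked Dnmt2 on a C57BL/6 background and were 6 to 8 months old, and the HFD males had received a western diet rich in butter from week 4 of age, against a normal diet for the ND males. RNA was taken from sperm purified by centrifugation, and the free fraction is the RNA that stayed in the aqueous phase of the extraction, whereas the DNA-bound fraction of the same males was released from genomic DNA. The study asked whether such RNAs differ with the diet of the father. Each library was deposited as a list of peaks, that is, of stretches where reads pile up over their surroundings, with a score per peak. A gene, repeat or position is called diet-specific when it holds a peak in both lists of 1 diet and in neither list of the other.

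Dnmt2, encoded by Trdmt1, is an RNA methyltransferase that adds a methyl group to a cytosine of certain tRNAs, and it has been linked in the mouse to the passing on of acquired metabolic traits through sperm RNA. Mature sperm hardly transcribe. Their RNA consists of remnants of spermatogenesis, rich in fragments of rRNA and tRNA, and of RNA taken up from the epithelium of the epididymis during transit.

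The HFD lists held 10143 peaks in male 3 and 18709 in male 4, and the ND lists 25406 in male 1 and 7635 in male 2. Read as tags, the peaks held 1209016 and 1251839 tags on HFD, and 3030787 and 964696 tags on ND. The lowest peak had 6 tags in each list, so that weaker RNAs are not seen. Tags are not scaled for depth and are given to show how many reads stand behind a peak. The 4 lists differed far more in makeup than in size. Peaks in exons or UTRs made up 12.03% in HFD male 3 (95% Wilson interval 11.4 to 12.7) and 0.666% in HFD male 4 (0.559 to 0.793), against 63.6% in ND male 1 (63.0 to 64.2) and 0.686% in ND male 2 (0.523 to 0.898). ND male 1 thus stood apart from the other 3 libraries, and HFD male 4 was closer to ND male 2 than to HFD male 3. The main counts are therefore also given without ND male 1. The intervals cover counting error only. As a check of the genotype, the gene Trdmt1 held 0 peaks in all 4 free lists, which says little at this depth. In the DNA-bound list of ND male 2, 2 peaks of up to 50 tags overlapped the gene.

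The transcripts that identify sperm were found almost only in ND male 1, which also held 6096 of the 6284 genes with a peak in exons or UTRs of any list. Of 40 spermatid and sperm genes, 0 had an exon or UTR peak in HFD male 3 and 0 in HFD male 4, against 15 in ND male 1 and 1 in ND male 2, the ciliary gene Tekt2 with 18 tags. Prm2, the protamine that packs the sperm genome, held 201 tags and Odf1, a protein of the outer dense fibres of the tail, 204 tags in ND male 1, and neither had such a peak in the other lists. Of 38 genes of the epididymal epithelium, 20 were present in HFD male 3 and 1 in HFD male 4, against 35 in ND male 1 and 0 in ND male 2. In such bulk samples, fewer cells of a type and less RNA per cell cannot be told apart. Leukocyte genes gave 0 and 0 of 28 on HFD, against 4 in ND male 1 (Cd74, Csf1r, H2-Aa and H2-Ab1) and 0 in ND male 2. Erythroid genes gave 0 and 1 of 15 on HFD, against 4 and 0 on ND. The haemoglobin gene Hba-a1 held 39 tags in HFD male 4 and 1236 tags in ND male 1. Liver genes, which stand for a tissue not in the sample, gave 0 and 0 of 20 on HFD, against 1 (Cyp2e1, 26 tags) and 0 on ND.

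Very few genes followed the diet in their exon or UTR peaks. In all, 964 such genes were found in HFD male 3 and 122 in HFD male 4, against 6096 in ND male 1 and 52 in ND male 2, which makes 6284 genes in any list. Of these, 1 was HFD-specific (0.0159%) and 12 were ND-specific (0.191%). By far the most common sharing crossed the diets: 843 genes were found in HFD male 3 and ND male 1 and in no other list. The overlap of these 2 lists was 863 genes, 89.5% of those of HFD male 3 and 14.2% of those of ND male 1. By contrast the HFD males shared 14 genes and the ND males 21.

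**Figure D1:**
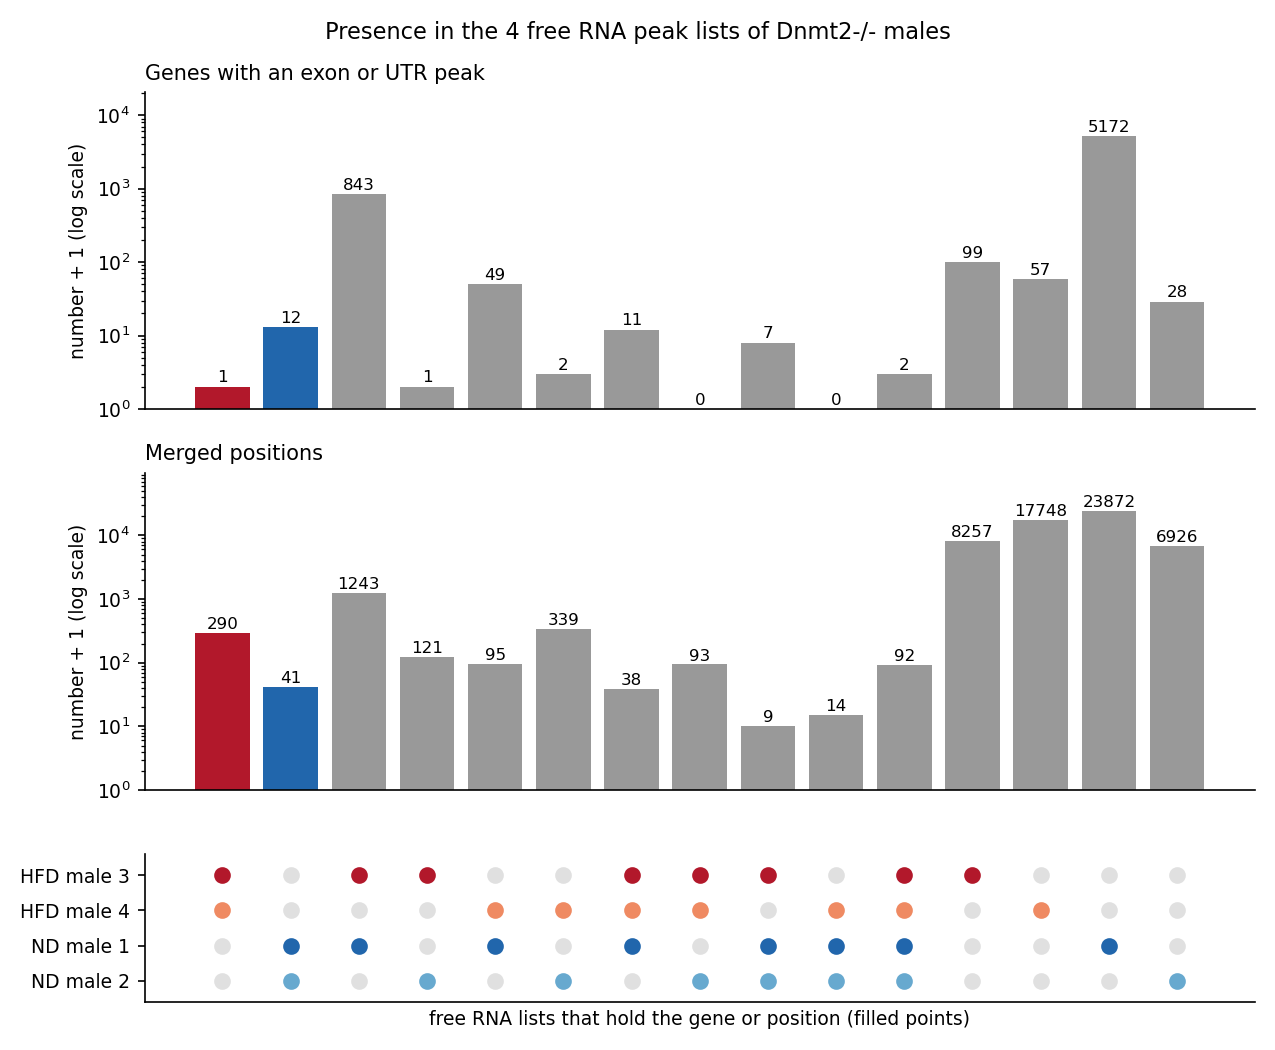
Number of genes whose exons or UTRs held a peak (upper panel) and of merged positions (middle panel), each plus 1 on a log axis, for each pattern of presence in the free RNA lists of HFD males 3 and 4 and ND males 1 and 2 (filled points). The patterns of the rule, both lists of a diet and neither of the other, hold 1 gene and 290 positions for HFD (red bars) and 12 genes and 41 positions for ND (blue bars), against 843 genes and 1243 positions in HFD male 3 and ND male 1 alone.

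The 12 ND-specific genes were Ablim1, Atp10b, Chrnd, Fbxo32, Gfy, Hipk3, Map7d2, Nf1, Prrx1, Ralgapa2, Slc2a3 and Ube2l6. None of them belongs to the pathway and cell type lists used below. Map7d2, a microtubule-binding protein, had the highest peaks, with 191 tags in ND male 1 (rank 311) and 62 tags in ND male 2 (rank 126). Slc2a3, the glucose transporter GLUT3 that also serves sperm, had 54 and 32 tags, and Hipk3, a nuclear protein kinase, 48 and 24 tags in ND males 1 and 2. Atp10b, which encodes a phospholipid flippase, had 44 and 21 tags in its highest exon or UTR peaks, and ND male 1 held 12 such peaks along this gene. All other genes of the group stayed between 14 and 32 tags, not far above the lowest peak. Among them are Ablim1, an actin-binding protein (18 and 32 tags), Chrnd, a subunit of the acetylcholine receptor of muscle (16 and 22), and Fbxo32, a ubiquitin ligase of muscle atrophy (22 and 15). Nf1, which restrains Ras, had 17 and 23 tags, the homeobox gene Prrx1 29 and 14, and Ralgapa2, which acts on Ral GTPases, 27 and 15. Ube2l6, which conjugates the ubiquitin-like ISG15, had 15 and 24 tags.

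Only 4 of the 12 genes had an exon or UTR peak at the same place in both ND males: Atp10b, Chrnd, Map7d2 and Ube2l6. For Atp10b this was a lesser peak of ND male 1, in the 3′UTR with 17 tags, and not its highest. For Map7d2 the shared place also held a peak in HFD male 3 (chrX:159414533-159414758, 40 tags, rank 1424), which the deposited annotation assigns to the promoter and not to an exon. Map7d2 was thus ND-specific as a gene and not as a position. The same place also held a peak in the DNA-bound lists of HFD male 3 (49 tags) and ND male 1 (40 tags), while none of the other 11 genes had its exon or UTR peak in a DNA-bound list. Gfy, a Golgi protein of olfactory neurons, had peaks of 18 and 14 tags within the same exon 3, with 296 bases between them. The stretches below are the middles of these peaks, read on the strand of the gene from the GENCODE transcript on GRCm38 (chr7:45177670-45177699 and chr7:45178141-45178170, minus strand), shown because the same exon was hit at separate places, with the 10 central bases in capitals.
Gfy, ND male 1: gcacgtacccCAGAACTCAGaccctaaagg
Gfy, ND male 2: accaactctaCACCATGAATcccctgaaat

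**Figure D2:**
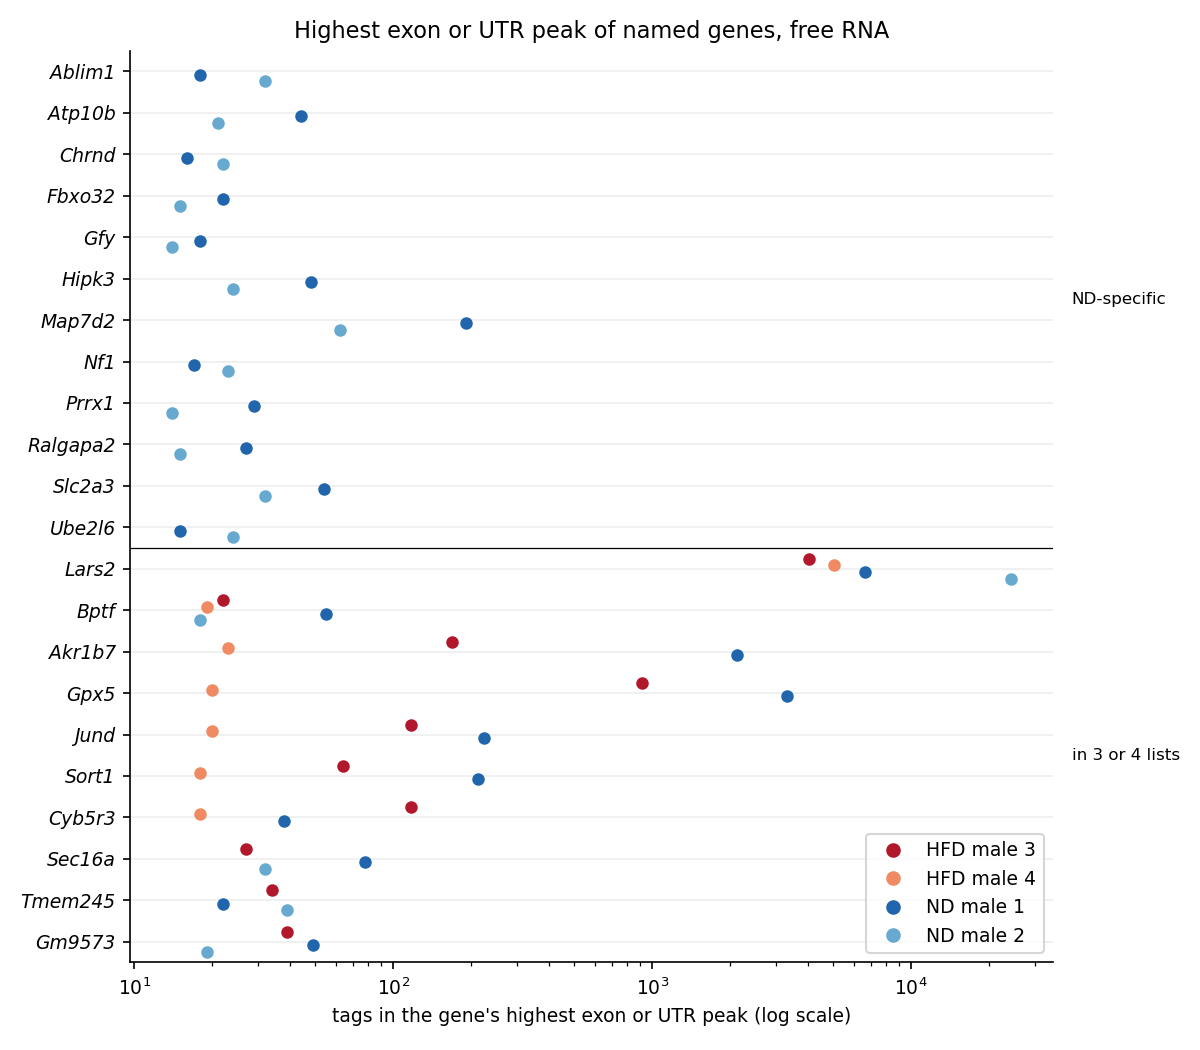
Tags in the highest exon or UTR peak (log axis) of the 12 ND-specific genes and of the 10 genes found in most lists, 1 point per free RNA list, HFD lists before ND lists. Map7d2 reaches 191 and 62 tags in ND males 1 and 2, and Lars2 4041 and 5052 tags in HFD males 3 and 4, against 6636 and 24357 tags in ND males 1 and 2.

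The lists of diet-specific genes rested on the class of peak and on single males. With exon peaks alone, 0 genes were HFD-specific and 4 were ND-specific (Gfy, Hipk3, Nf1 and Ralgapa2), and with promoters, transcript ends and non-coding exons added the counts were 9 and 36. Without ND male 1, 12 genes were HFD-specific and 40 ND-specific. Without HFD male 3 the counts were 58 and 19, without HFD male 4 they were 100 and 12, and without ND male 2 they were 1 and 5184.

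Few genes were found in all 4 males. Lars2, the mitochondrial leucyl-tRNA synthetase, and Bptf, a subunit of the chromatin remodeller NURF, were the 2 genes whose exons or UTRs held a peak in all 4 lists. Lars2 held 4041 and 5052 tags in HFD males 3 and 4, against 6636 and 24357 tags in ND males 1 and 2, always at the same place in the 3′UTR. Its scores, which are scaled for the depth of the library, were 8566.8 and 7859.3 on HFD, against 9936 and 52478.9 on ND, at rank 12 and 14, against 16 and 5. Both HFD scores were below both ND scores, whereas the ranks in the whole list overlapped. Among the positions shared by all 4 lists, described further on, Lars2 ranked 10 and 11 on HFD, against 8 and 4 on ND. No other exon or UTR peak of Lars2 was found in any of the lists. In the DNA-bound lists the same place held 3852 and 4953 tags in HFD males 3 and 4, against 1564612 and 3405 tags in ND males 1 and 2. Bptf was a weak peak throughout, with 22 and 19 tags on HFD, against 55 and 18 on ND. Its peak lay in exon 1 in HFD male 4 and both ND males, and in exon 21 in HFD male 3. The middle of the shared exon 1 stretch is given below (chr11:107131746-107131775, minus strand, GRCm38, 10 central bases in capitals), as an exon sequence that recurred in both diets.
Bptf, HFD male 4, ND male 1 and ND male 2: gggctgcgctCGCGGCACCGcggcagcagt

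Genes in 3 lists were those of ND male 1 and HFD male 3 that also had a peak in a further male, often of few tags. There were 11 in both HFD males and ND male 1, and 7 in HFD male 3 and both ND males. Gpx5, an epididymal glutathione peroxidase that coats sperm, held 912 and 20 tags in HFD males 3 and 4, against 3306 tags in ND male 1 and no exon or UTR peak in ND male 2. Akr1b7, an aldose reductase-like enzyme, held 168 and 23 tags on HFD, against 2117 tags in ND male 1. In both genes the HFD males lay far apart, and the peak of HFD male 4 was weak. Jund, an AP-1 transcription factor, held 117 and 20 tags on HFD, against 225 tags in ND male 1. Sort1, a sorting receptor of the Golgi, held 64 and 18 tags on HFD, against 213 in ND male 1, and Cyb5r3, a cytochrome b5 reductase, 117 and 18, against 38. The other direction was seen for Sec16a, a protein of endoplasmic reticulum exit sites, which held 27 tags in HFD male 3 and none in HFD male 4, against 78 and 32 on ND. Tmem245, a membrane protein, held 34 tags in HFD male 3, against 22 and 39 on ND, and Gm9573 39 tags, against 49 and 19.

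Genes of lipid, glucose and stress pathways were found mainly in ND male 1 and HFD male 3. Of 18 gene lists looked at, none had an HFD-specific or ND-specific member, and so few genes were diet-specific overall that this says little about the lists. The lists of microRNA and small nucleolar RNA genes could hardly have such a member, for the reason given with their counts. Of 35 genes of lipid synthesis, 6 had an exon or UTR peak in HFD male 3 and 1 in HFD male 4, against 22 in ND male 1 and 0 in ND male 2. The members in HFD male 3 were Acly (53 tags), Fads2 (63), Fasn (54), Insig1 (39), Scd2 (46) and Srebf1 (44), that is, enzymes that make acetyl-CoA, long-chain and unsaturated fatty acids and the factors that control them. In ND male 1, Acly had 189, Scd2 173 and Fads2 129 tags. HFD male 4 had a single member, the desaturase Fads1, with 9 tags at rank 18434. Over all genes with a peak, 964, 122, 6096 and 52 of 6284 were present in the same order of lists. That total holds only genes with a peak in some list, whereas the gene lists count all their members. The shares can therefore not be compared directly, and only the order of the males can.

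Other metabolic lists had the same order. Fatty acid uptake and oxidation had 1 of 28 genes in HFD male 3 (the mitochondrial carrier Ucp2, 39 tags) and 0 in HFD male 4, against 12 and 0 on ND. Insulin and glucose genes gave 5 and 0 of 34 on HFD, against 25 and 0 on ND. Those 5 were Foxo1 (16 tags), Gsk3b (16), Igf1r (27), Tsc1 (36) and the insulin receptor gene Insr (31). Genes of body weight and adipokines gave 0 and 0 of 28 on HFD, against 10 and 0. Genes of endoplasmic reticulum stress and heat shock gave 8 and 0 of 24 on HFD, against 20 and 0 on ND, led by the chaperones Hspa5 (110 tags in HFD male 3, 318 in ND male 1) and Calr (88 and 363). Antioxidant genes gave 8 and 0 of 27 on HFD, against 22 and 0 on ND.

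The same held for genes of RNA biology. Cytosine-5 methylation gave 4 and 0 of 17 on HFD, against 7 and 0 on ND. The 4 were the DNA methyltransferases Dnmt1 (32 tags) and Dnmt3a (16), the dioxygenase Tet3 (27) and Alyref (18), a reader of methylated mRNA, and all 4 were also present in ND male 1 (29, 32, 25 and 34 tags). The small RNA pathway gave 2 and 0 of 22 on HFD, namely Dicer1 (21 tags) and the exporter Xpo5 (32), against 8 and 0 on ND, where they held 26 and 25 tags. Ribosomal proteins of the cytosol gave 8 and 0 of 82 on HFD, against 53 and 0 on ND. Oxidative phosphorylation gave 6 and 0 of 89, against 59 and 0, and histones 3 and 0 of 48, against 9 and 0. Among annotated microRNA genes 0 of 793, and among small nucleolar RNA genes 0 of 85, had an exon or UTR peak in any free list. The deposited annotation puts exons of non-coding transcripts in a class of their own, as for Rn45s. Such genes could therefore hardly enter this count, which says nothing about their RNA.

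**Figure D3:**
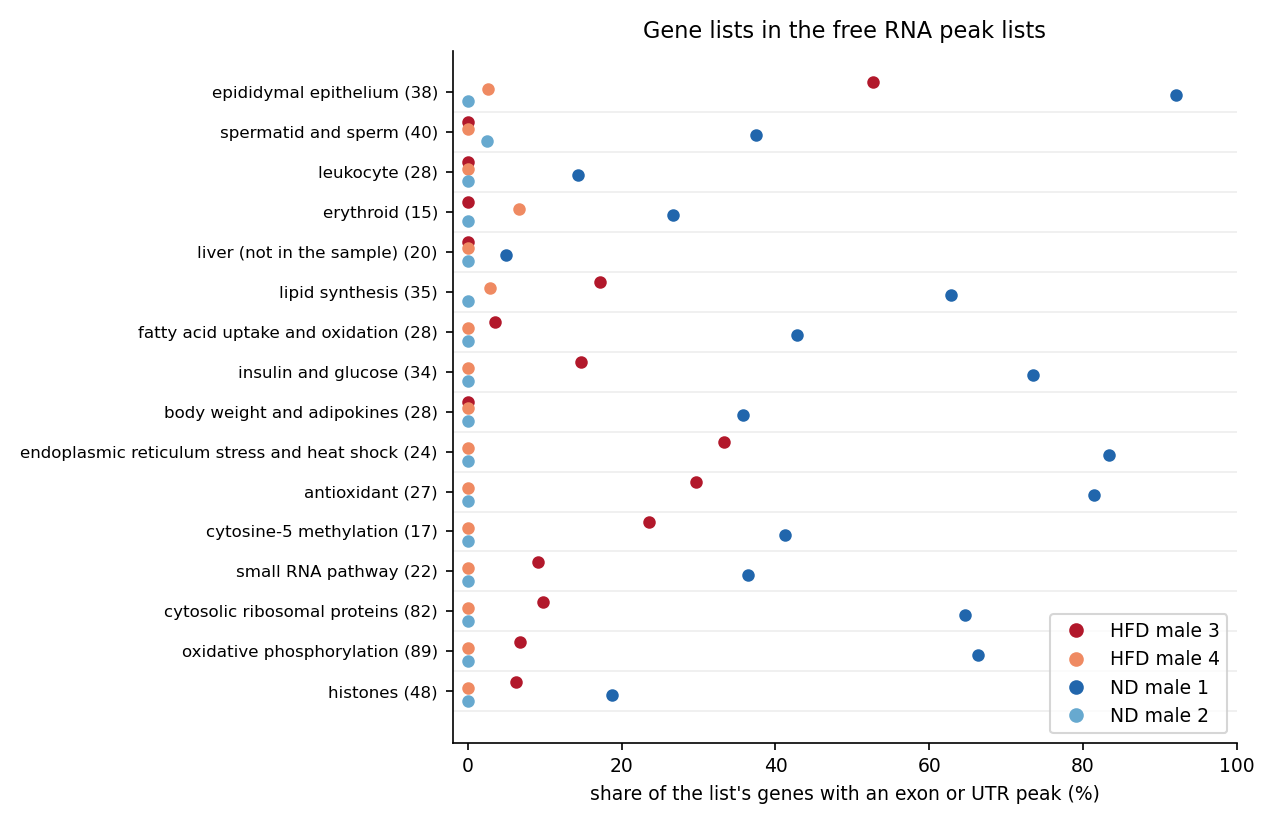
Share of each gene list (percent of its genes, list size in brackets) with an exon or UTR peak in each free RNA list, 1 point per male, for the lists other than microRNA and small nucleolar RNA genes. HFD male 4 and ND male 2 hold at most 1 gene of any list, while HFD male 3 and ND male 1 hold 20 and 35 of 38 epididymal genes.

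MicroRNA loci were also searched by coordinate. Of 1005 hairpins, 11 overlapped a peak in HFD male 3 and 0 in HFD male 4, against 39 in ND male 1 and 0 in ND male 2, with 8 shared by HFD male 3 and ND male 1 and 0 diet-specific. Over all positions only 0.49% were HFD-specific and 0.0693% ND-specific, so that 0 says little. Genes with an exon or UTR peak were likewise most numerous in ND male 1 (6096) and HFD male 3 (964). Whether such peaks come from the microRNA or from a longer transcript was not tested. That at Gm51296 lay in an exon of Pfdn5. The 3 hairpins of the miR-19 family, which the study had examined as carriers of the diet effect, held 0 peaks in every list. Short reads had been removed before mapping, so that mature microRNAs are largely outside what these lists can show. The study injected the 5p form of miR-19b, and it reported no rise of miR-19b on HFD in Dnmt2-/- males. Of the mature forms in RefSeq (GRCm38.p6), the 3p form is printed for identity, with its seed, bases 2 to 8, in capitals. The 5p forms have another seed.
mmu-miR-19b-3p: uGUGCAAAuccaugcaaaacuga

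Positions were compared next, irrespective of genes. Peaks of the 4 lists were merged where they shared at least 1 base, which gave 59178 positions. Of these, 290 were HFD-specific (0.49%), 41 were ND-specific (0.0693%) and 92 held a peak in all 4 lists. Pairs that crossed the diets were again frequent: 1243 positions were found in HFD male 3 and ND male 1 alone, 339 in HFD male 4 and ND male 2 alone, 121 in HFD male 3 and ND male 2, and 95 in HFD male 4 and ND male 1. The HFD pair thus ranked behind 2 of the 4 crossed pairs and the ND pair behind all of them. Without ND male 1, 328 positions were HFD-specific, and 6967 positions of ND male 2 were found in neither HFD list.

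The HFD-specific positions lay mostly outside exons. The class and repeat of a position are those of its peak with the highest percentile within its list. Of the 290, 152 were intergenic (52.4%), 125 intronic (43.1%), 3 in a 3′UTR and 0 in a coding exon. The whole lists were 42.2% and 63.7% intergenic in HFD males 3 and 4. They were weak, with a median of 24 tags in HFD male 3 and 17 in HFD male 4. Simple repeats covered 101 of them (34.8%), and the dinucleotide repeats (TG)n and (CA)n alone 50 (17.2%), followed by 29 in low-complexity sequence (10%), 28 in LINE and 27 in LTR elements, while 94 lay in no repeat (32.4%). This makeup was not particular to HFD. Of the positions of HFD male 4 and ND male 2 alone, 30.4% were simple repeats and 17.99% were (TG)n or (CA)n, and of those of HFD male 3 and ND male 2 alone, 26.4% and 17.4%. Positions found in a single list held 11.8% (HFD male 3), 13.0% (HFD male 4), 2.30% (ND male 1) and 14.1% (ND male 2) simple repeats.

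Of the 41 ND-specific positions, 15 were intergenic, 19 intronic, 2 in coding exons (Serinc3 and Ndufv2) and 3 in the 3′UTR of Atp10b, Chrnd and Ube2l6. Serinc3 and Ndufv2 did not have an exon or UTR peak in both ND males, so that their exon label did not hold in each of them. Their median was 21 tags in both ND males. Simple repeats covered 14.6% of them, LINE elements 19.5%, rRNA sequence 7.32%, and 36.6% lay in no repeat. With 41 positions these shares are imprecise.

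**Figure D4:**
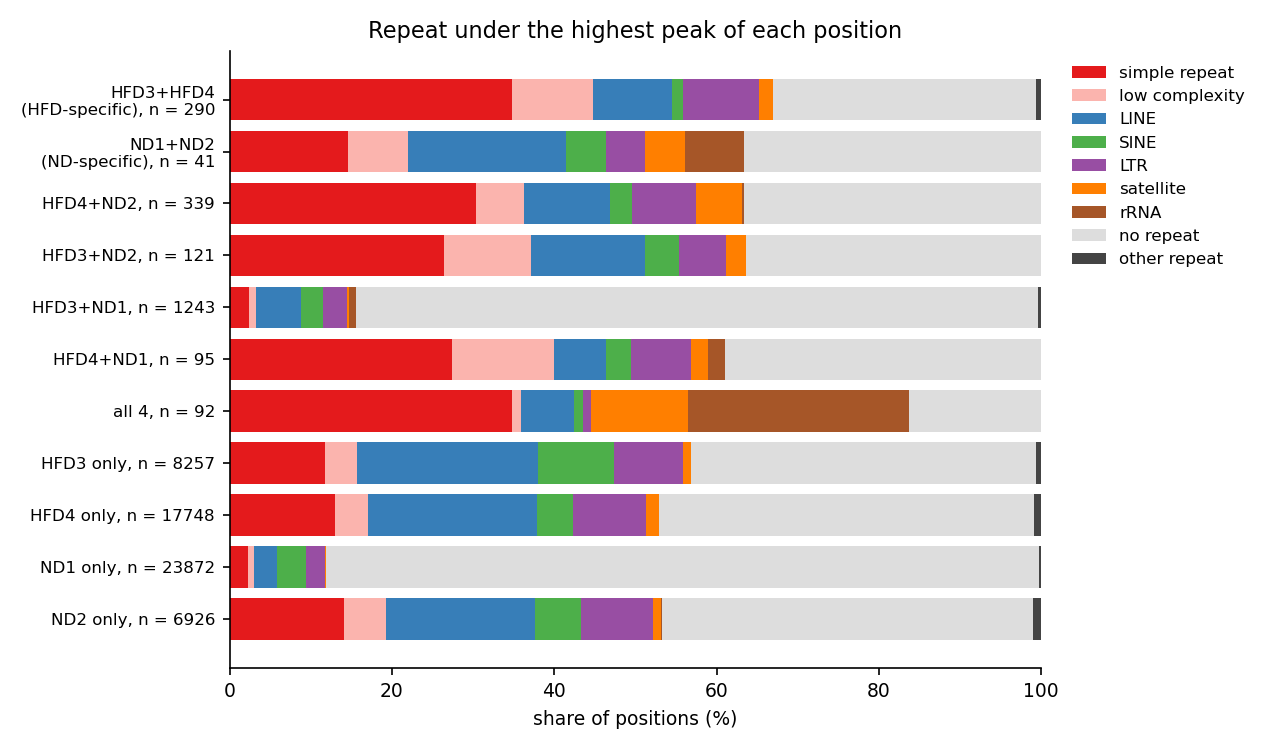
Share of positions in each repeat class (percent, bar colours) by the free RNA lists that hold the position: the HFD pair, the ND pair, the crossed pairs, all 4 lists and single lists, where HFD3, HFD4, ND1 and ND2 are the males. Simple repeats cover 34.8% of the HFD pair and 14.6% of the ND pair, and 30.4% of the positions of HFD male 4 and ND male 2 alone.

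The most abundant HFD-specific position lay in Rn45s, the ribosomal RNA precursor (chr17:39847867-39848117). It held 61281 tags in HFD male 3 and 82549 tags in HFD male 4, rank 4 in both lists. The locus was not silent on ND. ND male 2 had a peak of 76458 tags (rank 2) at chr17:39847623-39847803, 64 bases from the HFD position, and ND male 1 a peak of 59473 tags (rank 5) at chr17:39844761-39844930. HFD male 4 also had a second peak, of 21894 tags, at chr17:39846981-39847159. The gene was therefore high in all 4 males, at different places. The HFD position also held a peak in the DNA-bound lists of both HFD males and of ND male 2. The middle of each peak is printed to show that these are different stretches (GRCm38, plus strand, chr17:39848001-39848030, chr17:39847699-39847728 and chr17:39844831-39844860), with the 10 central bases in capitals. GENCODE names the transcript Gm42418 at the HFD and ND male 2 places and Gm26917 at that of ND male 1.
Rn45s, both HFD males: ttcccagtaaGTGCGGGCCAtaagcttgcg
Rn45s, ND male 2: tcttagttggTGGAGCGATTtgtctggtta
Rn45s, ND male 1: ggccgcccttGCCGTCGTCGccggccctcg

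Other leading HFD-specific positions included Malat1, a long non-coding RNA of nuclear speckles, with 529 tags in HFD male 3 and 37 in HFD male 4 (chr19:5801009-5801346). The nearest ND peak lay 1117 bases away. Malat1 was HFD-specific here as a position and not as a gene. It was not among the 9 HFD-specific genes found with promoters, transcript ends and non-coding exons added. The stretch common to both HFD males is given below (chr19:5801187-5801216, minus strand, 10 central bases in capitals), as the leading HFD-specific position in a transcript that is not ribosomal. Endogenous retroviral sequence in intron 3 of Cep85, a centrosomal protein, gave 147 and 54 tags in MuLV-int (chr4:134161973-134162213) and 105 and 28 tags in RLTR4_MM-int (chr4:134160176-134160426). Their nearest ND peaks were 1378 and 155 bases away. The major satellite GSAT_MM on chromosome 9 gave 109 and 241 tags (chr9:3006737-3006982), with an ND peak 120 bases away. Introns of Poc1b (40 and 24 tags) and Dab1 (38 and 24 tags), an unplaced scaffold (56 and 112 tags) and intergenic positions on chromosomes 17 (39 and 62 tags) and 1 (37 and 24 tags) completed the 10 highest.
Malat1, both HFD males: ctaggaagaaGGAGCCATACggatgtggtg

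The leading ND-specific positions were repeats too. LSU-rRNA_Hsa sequence, that is, a copy of the large ribosomal RNA, in an intron of Jarid2 held 1885 tags in ND male 1 and 4522 in ND male 2 (chr13:44869541-44869721), with an HFD peak 148 bases away. An L1MEd element on chromosome 10 held 1102 and 683 tags and was found in all 4 DNA-bound lists. GSAT_MM on chromosome 14 held 385 and 2321 tags, and GSAT_MM on chromosome 9 held 21 and 119 tags (chr9:3007102-3007282), 120 bases from the HFD-specific position above. LINE elements in an intron of Zfp804b (L1Md_F2, 71 and 36 tags) and on chromosome 10 (L1Md_A, 65 and 33 tags), introns of Snx5 (28 and 31) and D5Ertd579e (37 and 22), an unplaced scaffold (67 and 24) and LSU-rRNA_Hsa on chromosome 6 (22 and 165) made up the rest of the 10 highest. The satellite of chromosome 9 was thus covered in both diets at neighbouring places.

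How near the other diet came was measured for each diet-specific position. The nearest ND peak lay at a median of 40486 bases from an HFD-specific position and within 1000 bases of 22 (7.59%) of them. The nearest HFD peak lay at a median of 12806 bases from an ND-specific position and within 1000 bases of 5 (12.2%). Most of the positions therefore had no peak of the other diet within 1000 bases, while 4 of the 10 highest HFD-specific ones had an ND peak at 64 to 404 bases. The same distances were not computed for other positions, so that these are not shown to be unusual.

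By number of peaks, LINE elements were the class in which the diets lay farthest apart, and most of that difference came with ND male 1. They covered 19.6% of peaks in HFD male 3 and 20.2% in HFD male 4, against 3.10% in ND male 1 and 17.8% in ND male 2. By number of peaks this was the only class of the 6 tested in which the diets did not overlap, with a difference of 9.47 percentage points between the means of 19.9% ± 0.483 on HFD and 10.4% ± 10.4 on ND (SD, n = 2 males each, exact permutation test over 4 males, two-sided p = 0.3333, adjusted p = 0.8). That p is the smallest the 6 possible splits of 4 males can give. Without ND male 1 the difference was 2.14 points. Simple repeats covered 12.1% and 14.2% on HFD, against 2.61% and 15.8% on ND, a difference of 3.92 points that became -2.70 points without ND male 1. LTR elements (7.72% and 8.93%, against 2.35% and 8.61%), SINE elements (8.24% and 4.40%, against 3.50% and 5.52%), satellites (1.09% and 1.69%, against 0.205% and 1.52%) and rRNA sequence (0.386% and 0.182%, against 0.201% and 0.488%) overlapped between the diets. With each peak weighted by its score the order of the classes changed. Then rRNA sequence took 60.5% and 42.6% of the score on HFD, against 68.6% and 53.6% on ND, a difference of -9.52 points, and satellites 9.31% and 21.0%, against 0.604% and 16.9%, a difference of 6.40 points, and both overlapped between the diets (exact permutation test, two-sided p = 0.67 each). The weighted LINE difference was 3.24 points, and LINE, LTR (1.78% and 2.35%, against 0.779% and 1.48%) and SINE elements (1.92% and 1.149%, against 0.594% and 0.968%) did not overlap.

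Repeat families were nearly all common to the diets. Of 35 families, 23 were found in all 4 lists, 0 were HFD-specific (0%) and 1 was ND-specific (2.86%), DNA/TcMar-Mariner with 1 peak in each ND list. L1, the most frequent family of interspersed repeats, covered 19.4% and 19.8% of peaks on HFD, against 2.99% and 17.5% on ND. Of 768 repeat names, 255 were found in all 4 lists, 40 were HFD-specific (5.21%) and 5 were ND-specific (0.651%). LTR elements made up 28 of the 40 HFD-specific names, or 70%, against 49.0% of all names. The HFD lists also held more peaks in such elements, with 780 and 1664 in LTR elements, against 597 and 653 on ND. For LINE elements the numbers were 1975 and 3771, against 786 and 1347. Whether the counts of names follow these numbers was not tested. The most frequent HFD-specific names were the endogenous retroviral LTR MT2A (4 peaks in HFD male 3 and 11 in HFD male 4), the simple repeat (CTCA)n (5 and 9) and the LTR RLTR45 (3 and 8). No HFD-specific name had more than 15 peaks in all. The 5 ND-specific names, (CCCCAG)n, L1M6, MTE2a-int, MLT1J and MER70B, had 1 peak in each ND list. With the 7635 highest peaks of each list, 27 names were HFD-specific and 2 ND-specific. Without ND male 1, 65 names and 2 families were HFD-specific and 41 names and 2 families ND-specific.

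Most of the signal sat in few peaks, several of which all males shared. The 10 highest peaks held 71.2% and 67.4% of the score on HFD, against 69.4% and 70.4% on ND. A peak in LSU-rRNA_Hsa sequence within an intron of Cdk8 was the highest in HFD males 3 and 4 and ND male 2 and the second in ND male 1, with 372587 and 451092 tags on HFD, against 552978 and 386965 on ND. It took 30.8% and 36.0% of the score on HFD, against 18.2% and 40.1% on ND, and the groups overlapped. Further leading peaks were LSU-rRNA_Hsa in introns of Filip1l and Zc3h7a and GSAT_MM near Lrrc4c and Rab10os. These are copies of ribosomal RNA and satellite DNA, and reads that fit many copies may have been placed at any of them. Not all of the highest peaks were shared. Rank 4 of ND male 1 was a mitochondrial peak (MT:1452-1621, 99093 tags, 3.27% of its score) that no other free list held. The Rn45s peaks, described above, also lay at different places.

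The 92 positions with a peak in all 4 lists were ranked within each list. In 19 (20.7%) both HFD ranks were nearer the top than both ND ranks, and in 22 (23.9%) both were nearer the bottom. By the percentile of rank in the whole list the counts were 27 and 5, and without ND male 1, where 185 positions are shared, 51 and 56. Grouped by the kind of repeat after the values had been seen, and hence as a description only, the 2 directions held different kinds. Among 26 positions in telomeric repeats, (TTAGGG)n or (CCCTAA)n, 11 ranked higher on HFD and 0 lower, with median ranks of 56 and 49 on HFD, against 73.5 and 55.5 on ND. Their median tags were 119.5 and 226.5 on HFD, against 16.5 and 122 on ND. Among 25 positions in rRNA sequence, 0 ranked higher on HFD and 13 lower, with median ranks of 22 and 29 on HFD, against 19 and 20 on ND. Their median tags were 785 and 800 on HFD, against 2161 and 2662 on ND. Of 11 satellite positions 3 ranked higher on HFD and 0 lower, and of the other 30, 5 ranked higher and 9 lower. By the percentile in the whole list, 10 telomeric positions ranked higher and 0 lower, whereas rRNA sequence had 2 higher and 2 lower. ND male 1 ranked below both HFD males at 24 of the 26 telomeric positions, and ND male 2 at 11.

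**Figure D5:**
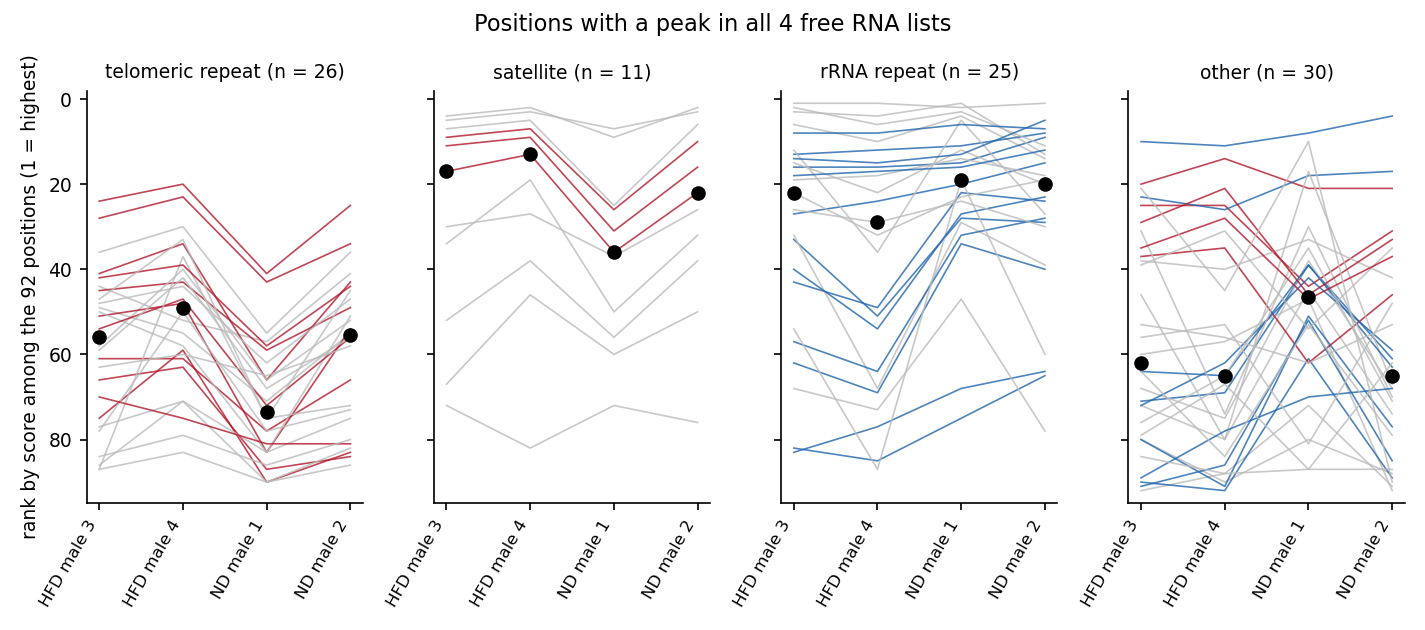
Rank by score (1 is the highest) among the 92 positions with a peak in all 4 free RNA lists, by kind of repeat, with 1 line per position (red, both HFD ranks nearer the top than both ND ranks; blue, both nearer the bottom; grey, overlapping) and black points at the median of each list. Telomeric repeats have median ranks of 56 and 49 in HFD males 3 and 4 and of 73.5 and 55.5 in ND males 1 and 2.

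A test across all 92 positions gave no call. With limma on log2 scores centred on the median of each list, 0 positions were higher (0%) and 0 lower (0%) on HFD at an adjusted p under 0.05, with 1 higher and 13 lower at an unadjusted p under 0.05 and a lowest adjusted p of 0.151. The largest difference upward was that of (TTAGGG)n near Gng4 on chromosome 13, with scores of 186.6 and 200.6 on HFD, against 13.5 and 62.5 on ND, and a difference of 1.75 on the log2 scale (SE 0.67, limma adjusted p = 0.312). The groups did not overlap there. The lowest p was that of LSU-rRNA_Hsa in an intron of Arhgap21, with scores of 250.2 and 186.6 on HFD, against 606.4 and 1577.1 on ND, and a difference of -3.17 (SE 0.75, limma adjusted p = 0.151). LSU-rRNA_Hsa near Igf2bp3 (-2.78), in Il31ra (-2.87) and in Gphn (-2.64) and a position at the start of Mir466d (-2.94) had the same adjusted p.

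By kind, the median difference was 0.85 for telomeric repeats (26 of 26 above 0), 0.83 for satellites (9 of 11), -2.16 for rRNA sequence (0 of 25) and -0.82 for the other positions (9 of 30). Over all 92 positions it was -0.09. These differences were smaller without ND male 1, and that of the other positions changed sign. Against ND male 2 alone the medians were 0.39 for telomeric repeats (24 of 26 above 0), 0.08 for satellites (8 of 11), -1.21 for rRNA sequence (6 of 25) and 0.12 for the other positions (19 of 30), in a comparison added after the values had been seen. Left uncentred, those against ND male 2 were 0.18 for telomeric repeats (16 of 26 above 0), -0.14 for satellites (2 of 11) and -1.42 for rRNA sequence (5 of 25). Without centring all values move up by 0.99, because the median log2 score of the shared positions was 8.68 and 8.71 on HFD, against 6.51 and 8.91 on ND. Then telomeric repeats had a median of 1.84 and satellites of 1.81, rRNA sequence had -1.18 with 22 of 25 below 0, and the other positions turned to 0.17. As many of these positions are copies of a single repeat, they are not independent of each other. In the DNA-bound lists, 66 of the 92 positions had a peak in all 4 males as well, and there 7 ranked higher and 9 lower on HFD. The telomeric and rRNA positions showed no such order there, with 2 higher and 2 lower each.

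The diet-specific positions of the free RNA were then looked up in the DNA-bound lists of the same males, which had not been used to choose them. Of the 290 HFD-specific positions, 11.0% and 12.1% held a peak in the DNA-bound lists of HFD males 3 and 4, against 1.72% and 34.5% in those of ND males 1 and 2. The difference between the means was -6.55 percentage points (exact permutation test over 4 males, two-sided p = 1). Of the 41 ND-specific positions, 12.2% and 12.2% held a peak in the DNA-bound lists of the HFD males, against 12.2% and 19.5% in those of the ND males, a difference of -3.66 points (exact p = 1). Over all 59178 positions the shares were 2.14% and 2.12% on HFD, against 0.532% and 7.87% on ND. HFD-specific positions of the free RNA were thus found in the DNA-bound RNA of males of either diet, least in the shortest DNA-bound list (ND male 1, 3427 peaks) and most in the longest (ND male 2, 49918 peaks).

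In all, 122 of the 290 HFD-specific positions (42.1%) and 12 of the 41 ND-specific ones (29.3%) held a peak in at least 1 DNA-bound list, against 10.3% of all positions. Among the pairs that crossed the diets, the share was 44.5% for HFD male 4 and ND male 2, 41.3% for HFD male 3 and ND male 2, 30.5% for HFD male 4 and ND male 1, and 3.62% for HFD male 3 and ND male 1. A high share was thus also seen without a shared diet. Of the 92 positions found in all 4 free lists, 88 held a DNA-bound peak. The labels name no more than 1 free library per male, and with 2 males per diet the exact tests could not reach a threshold.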

How the data were processed

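Free RNA peak lists of 4 Dnmt2-/- males were used, 2 per diet, and the DNA-bound lists of the same males served as lists not used for choosing. The other 8 samples, of C57BL/6 males, were not used here. Per the study's methods, the authors trimmed the reads (Trimmomatic 0.36), mapped them to GRCm38 with Hisat2, used HOMER 4.9 to call peaks library by library and annotated them against mm10. HOMER keeps the highest of neighbouring peaks, so that a lesser peak nearby can be missing. The deposited score comes from the authors' HOMER output with no unit given. It was read as tags scaled to a common total, since 100% of scores under 100 came out as whole tags (tolerance 0.2). All peaks carry 1 strand, and antisense RNA cannot be told from sense. No column of values was left unused (0).

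Genes were those of the annotated transcript. Positions were peaks sharing at least 1 base. Shares of annotated peaks were compared by an exact permutation test over 4 males (6 splits, smallest p 0.3333), adjusted by Benjamini-Hochberg over 6 classes. Log2 scores of positions in all 4 lists were fitted with limma 3.58.1 (R 4.3.3, no low-value filter or pseudocount), after tests on simulated data. Other steps used Python 3.11.15, pandas 2.3.3, numpy 2.4.6, scipy 1.17.1 and matplotlib 3.10.9. Sequences and hairpins came from GENCODE vM21 transcripts and RefSeq (GRCm38.p6). Named were all diet-specific genes (up to 20 per diet) except 1 that is not reported here, the 10 genes in most lists, those of the 5 highest peaks per list, the 10 highest diet-specific positions per diet and up to 4 members per gene list. Further members were named where a list had few. Positions in Serinc3 and Ndufv2 and the kinds of repeat were singled out after their values were seen. Members and lists were chosen with earlier results of these data known. Alternatives were classes of peak, nearest gene, equal list lengths, stricter overlap, masking of repeats, weighting by score, whole-list percentiles, no centring and leaving out each male.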

Additional observations from a re-analysis of the deposited data

Results flagged for a closer look

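The share of peaks in LTR elements, free minus DNA-bound within a male, had opposite signs in the diets. It was 0.319 and 1.71 percentage points in HFD males 3 and 4 (mean 1.01), against -5.11 and -0.483 points in ND males 1 and 2 (mean -2.80), which makes 3.81 points between the diets. LTR elements are reported because they alone among the repeat classes compared had this pattern of signs. The values of HFD male 3 and ND male 2 were small, and their counting error was not computed. The gap between the diets came mostly with ND male 1, where the free list held 63.6% exon or UTR peaks. The difference itself was not tested, so that no consistent change with diet is shown.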

How the results depend on the processing

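Counts of diet-specific genes and positions depended on the peaks admitted. HFD-specific and ND-specific genes numbered 0 and 4 with exons only, 9 and 36 with promoters, ends and non-coding exons, and 2 HFD-specific with the nearest gene. With equal numbers of the highest peaks per list (7635), 5 genes were ND-specific, positions numbered 103 (HFD-specific) and 18 (ND-specific), 0 repeat families and 2 repeat names were ND-specific, and 27 repeat names HFD-specific. Without rRNA, satellite, simple and low-complexity repeats, positions numbered 130 and 26, and of the shared positions 0 ranked higher and 2 lower on HFD. By the percentile of rank in the whole list 27 ranked higher and 5 lower. With peaks weighted by score, the rRNA difference was -9.52, the satellite difference 6.40 and the LINE difference 3.24 points. Joining peaks up to 1000 bases apart, an alternative chosen after seeing the data, gave 103 ND-specific positions. Outside exons and UTRs the SINE difference was -0.698 points. At 50% overlap the ND-specific positions differed by 5.36 points between the diets in the DNA-bound lists.

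Leaving out each male in turn gave 1 to 100 HFD-specific and 12 to 5184 ND-specific genes, 328 to 18043 and 48 to 23913 positions, 0 to 2 and 2 to 3 repeat families, and 65 to 167 and 10 to 56 repeat names. Between 26 and 54 shared positions ranked higher and 31 to 56 lower. Differences in repeat shares ranged from 2.14 to 16.8 points (LINE), -0.283 to 5.97 (LTR), -0.117 to 3.73 (SINE), -0.126 to 1.18 (satellite), -2.70 to 10.5 (simple repeats) and -0.204 to 0.0833 (rRNA). In the DNA-bound lists they ranged from -22.9 to 9.83 points for HFD-specific and -7.32 to 0 points for ND-specific positions. The limma fit gave 0 calls under each alternative, with 0 to 36 positions at an unadjusted p under 0.05. A single male then stands for a diet, and its positions no longer need a second list, so that counts rise by construction. The cause of the other moves was not tested. No paired analysis was possible because the diets were given to different males. Depth limits all lists to peaks of at least 6 tags.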
